A study of Rattus norvegicus with 82 samples.

Results

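Fatty acid uptake and beta oxidation was followed through 33 genes in rat hearts, of 34 listed for the pathway from the fatty acid carriers of the cell surface to the last thiolase step. A gene was found by its symbol in the annotation of the array, and its brightest probe set over all 82 arrays stood for it. The listed gene without a value, Acaa1a, a thiolase of the peroxisome, was found only on a probe set that carries several symbols. All 33 genes passed the filter on dim values, which left 11319 of the 14217 genes with a symbol.

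The hearts came from male Wistar rats, Crl:Wi(Han), injected once into a vein with 0.9% saline, the vehicle, or with one of 3 tubulin binders dissolved in it. Vinblastine was given at 0.5 or 3 mg/kg, vincristine at 0.1 or 1 mg/kg and colchicine at 0.2 or 2 mg/kg, and hearts were taken 6 or 24 h later. That makes 14 groups of 6 animals, except the groups at vincristine 0.1 mg/kg with 5 each, and each array holds the RNA of 1 animal. Vinblastine and vincristine are vinca alkaloids, which block the assembly of microtubules, and colchicine is a plant alkaloid that binds tubulin at another site. The doses differ between the compounds, so their values stand side by side below and are not compared. All 3 are set against the same saline animals of their time point.

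The heart draws most of its energy from long-chain fatty acids. They enter through carriers such as Cd36, are carried by binding proteins, are joined to coenzyme A, cross the inner mitochondrial membrane as carnitine esters, and are shortened by repeated rounds of dehydrogenation, hydration, a further dehydrogenation and thiolysis. Nuclear receptors of the PPAR and ERR families, with the coactivator PGC-1alpha, are known to drive many of these genes in heart muscle.

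Intensities were the authors' deposited linear values, with a median between 57.6 and 63.3 on every array and correlations of 0.967 to 0.996 between an array and the rest of its group. The cardiomyocyte gene Myh6, the alpha myosin heavy chain, had a mean intensity of 23900 and was above the filter level on 82 of 82 arrays. On 10 arrays the profile was over 1.3 times as far from the median of its own group as from that of another. For colchicine they were replicate 4 of 2 mg/kg and replicates 1 and 6 of 0.2 mg/kg at 6 h, and replicate 1 of 2 mg/kg and replicate 6 of 0.2 mg/kg at 24 h. For vinblastine they were replicate 1 of 3 mg/kg and replicate 6 of 0.5 mg/kg at 6 h and replicate 5 of 0.5 mg/kg at 24 h. For vincristine they were replicate 3 of 1 mg/kg at 6 h and replicate 5 of 0.1 mg/kg at 24 h. Replicate 1 of colchicine 2 mg/kg at 24 h had the highest ratio, 3.204, and lay nearest to colchicine 0.2 mg/kg at 24 h. Leading values use every array as labelled, and counts of the fatty acid genes at the higher doses without the 10 are given beside them, as are those of other lists where they moved most. The 10 were picked from these same intensities, so values without them describe the remaining arrays and are no separate support for a change. In whole heart tissue fewer cells of a type and less RNA per cell cannot be told apart.

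Changes are differences of log2(intensity + 16), given with the standard error of one limma fit over all 82 arrays, and intensities are given as mean ± SD. That fit pools the spread over the 14 groups. For a group that spreads more widely, standard errors and p-values therefore rest in part on the tighter spread of the others. A gene rose or fell where its Benjamini-Hochberg adjusted p over the 11319 genes was under 0.05. At 24 h after colchicine 2 mg/kg, 20 of the 33 genes fell and 2 rose, against 25.3% of all genes tested that fell and 19.3% that rose. The median of the 33 differences was -0.266, against 0.000 over all genes, and 30 of them lay below 0. After vincristine 1 mg/kg at 24 h, 6 rose and 7 fell, against 12% and 18.4% of all genes, with a median of -0.065. After vinblastine 3 mg/kg at 24 h, 4 rose and 3 fell, against 5.29% and 4.28%, with a median of -0.010. The genes that rose were Cd36, Fabp4, Acot2, Mlycd, Cpt1b and Hsd17b4 after vincristine, the same list without Cd36 and Acot2 after vinblastine, and Fabp4 and Hsd17b4 after colchicine. Across the 6 comparisons of a higher dose with saline, 27 genes changed at least once. The other 6, Acadl, Acadm, Acadsb, Hadha, Hadhb and Decr1, passed the threshold in none of these comparisons. The share of all genes that changed at least once was not counted, so the 27 are no result about these genes.

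**Figure D1:**
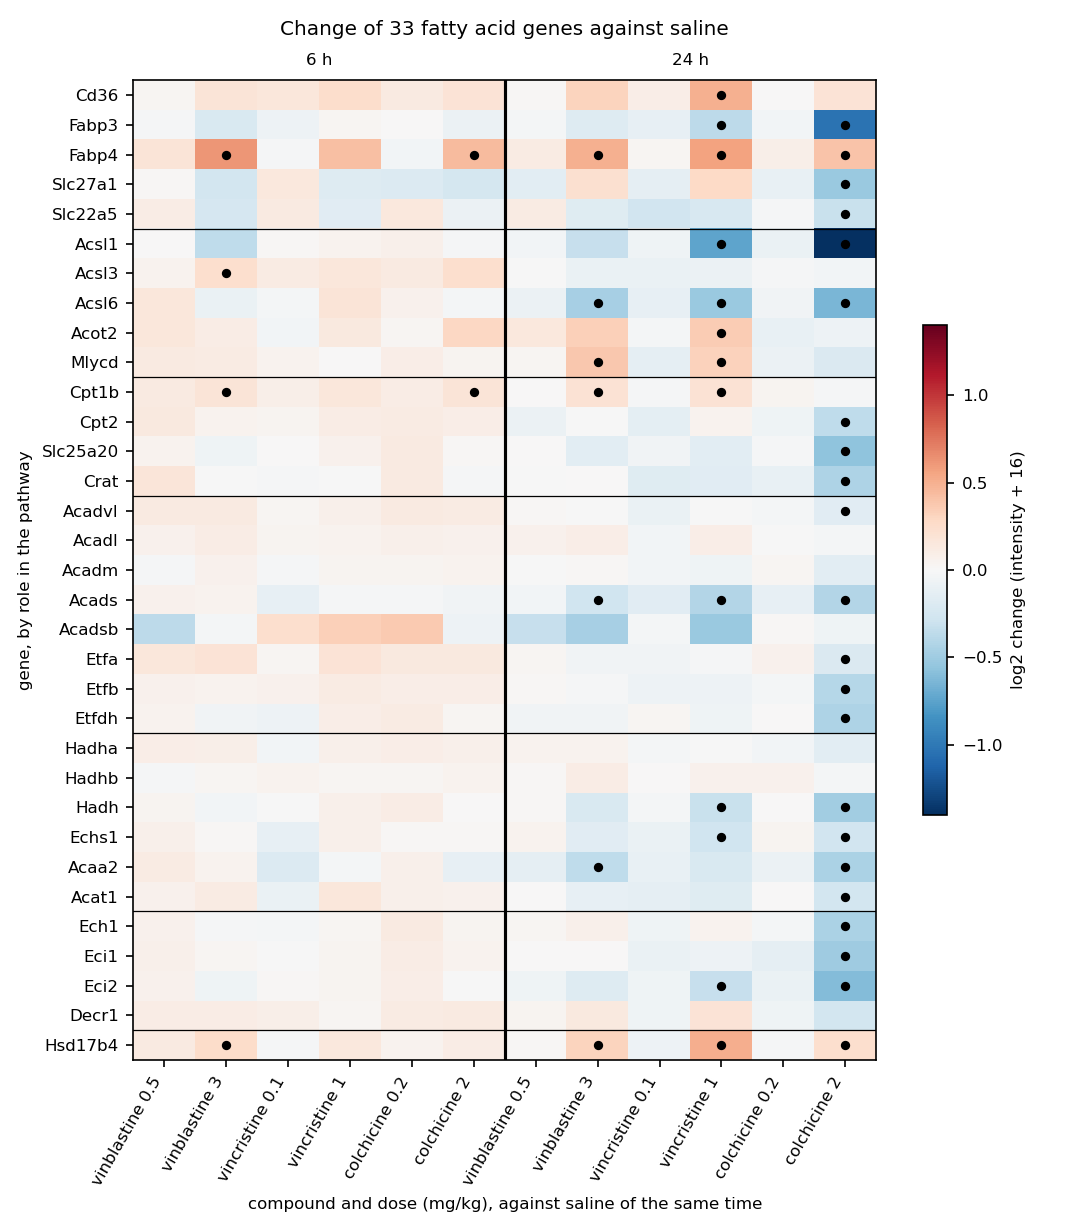
The map shows the log2 change against saline of the same time for the 33 genes (rows, by role) in the 12 comparisons of a dose with saline (columns), with a dot where the limma adjusted p was under 0.05. The column of colchicine 2 mg/kg at 24 h holds 22 dots and the columns of the lower doses hold none.

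**Figure D2:**
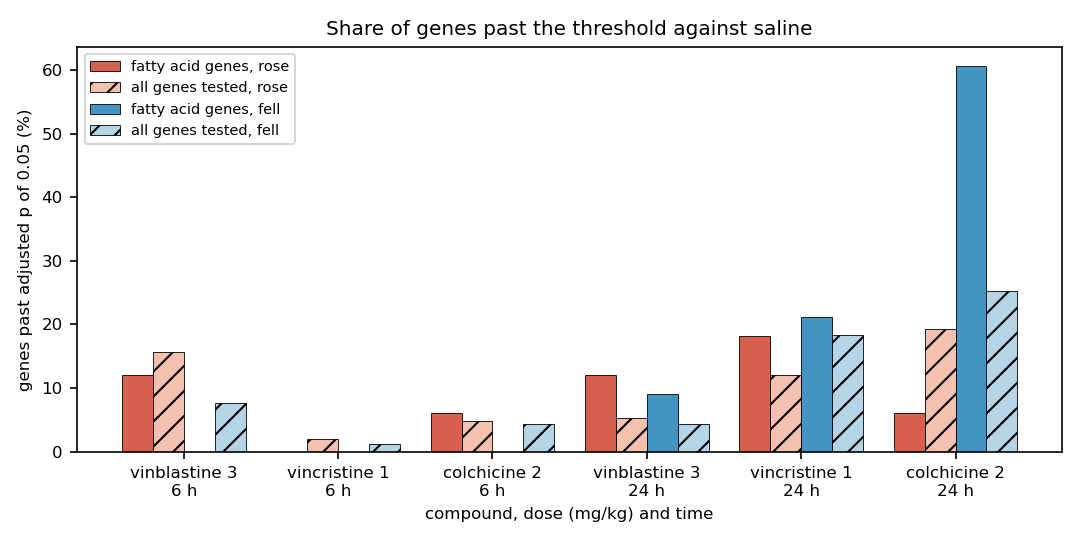
Bars show the percentage of the 33 fatty acid genes and of the 11319 genes tested that rose or fell in the 6 comparisons of a higher dose with saline. After colchicine 2 mg/kg at 24 h, 60.6% of the fatty acid genes fell, against 25.3% of all genes.

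The animals given colchicine 2 mg/kg differed widely among themselves at 24 h. Replicate 1, the array set apart, had 11 of the 33 genes below the saline mean and a median difference of 0.032. Replicate 2 had 19 genes below it, with a median of -0.105. In replicates 3, 4, 5 and 6 the numbers were 32, 26, 28 and 29, with medians of -0.598, -0.278, -0.416 and -0.578. The 6 saline animals of that time, each set against the mean of the others, had medians between -0.163 and 0.090, so 4 of the 6 colchicine animals lay under all of them. A saline animal at 6 h, replicate 6, had all 33 genes below the mean of the other saline animals of its time and a median of -0.274. Medians of the vincristine 1 mg/kg animals, from -0.192 to 0.159, and of the vinblastine 3 mg/kg animals, from -0.135 to 0.138, overlapped those of saline.

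**Figure D3:**
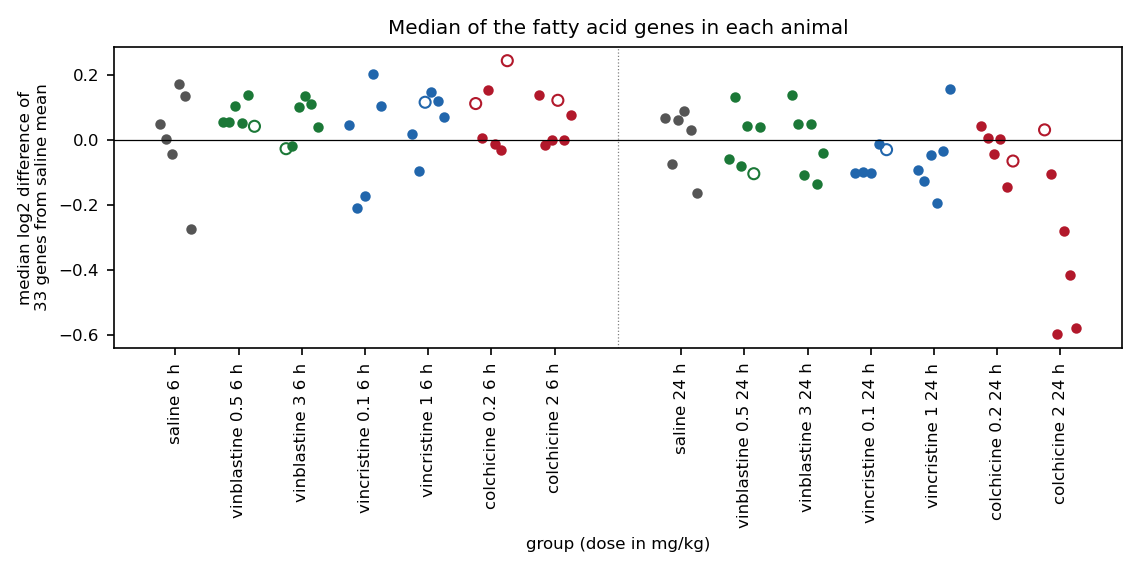
Each point is 1 animal, placed at the median log2 difference of the 33 genes from the saline mean of its time point, by group, with open points for the 10 arrays set apart. A saline animal was set against the mean of the other saline animals of its time. The colchicine 2 mg/kg animals at 24 h spread from -0.598 to 0.032.

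Without the 10 arrays, 24 genes fell and 2 rose at 24 h after colchicine 2 mg/kg, against 28.2% and 22.4% of all genes. Mlycd, Acadm, Hadha and Decr1 joined those that fell, with differences of -0.25, -0.19, -0.18 and -0.32 and adjusted p values of 0.0136, 0.0201, 0.0484 and 0.0375. The animals of the 2 groups did not overlap for 2 genes with all arrays (8.61% of all genes) and for 13 genes without those set apart (32.1% of all genes). After vincristine 1 mg/kg the counts were 6 and 7 again, against 14.4% and 20.5% of all genes. After vinblastine 3 mg/kg they were 4 and 5, against 15.8% of all genes that changed either way, as Acsl1 (-0.33, adjusted p = 0.0306) and Hadh (-0.21, adjusted p = 0.0257) passed the threshold.

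Promoter sequences from RefSeq (build GRCr8) were at hand for 27 of the 33 genes. Shown are the 250 bases before a listed start, which need not be the first start of the gene. They belong to the 2 genes with the largest falls, Acsl1 and Fabp3, and to 2 other genes that fell. Those 2, Acadvl and Eci1, hold the half-site AGGTCA bound by nuclear receptors of the PPAR, RXR and ERR kind. Capitals mark that half-site, which reads TGACCT where it lies on the other strand.
Acsl1: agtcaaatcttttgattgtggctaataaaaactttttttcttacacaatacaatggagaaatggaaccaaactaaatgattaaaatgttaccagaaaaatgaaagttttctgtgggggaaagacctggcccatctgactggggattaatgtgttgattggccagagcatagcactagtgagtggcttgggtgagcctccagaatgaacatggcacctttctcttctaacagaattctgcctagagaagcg
Fabp3: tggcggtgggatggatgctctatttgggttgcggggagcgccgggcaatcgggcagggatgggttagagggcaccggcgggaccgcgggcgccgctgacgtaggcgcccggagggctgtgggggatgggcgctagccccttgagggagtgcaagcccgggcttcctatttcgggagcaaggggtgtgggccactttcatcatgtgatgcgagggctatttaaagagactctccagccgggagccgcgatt
Acadvl: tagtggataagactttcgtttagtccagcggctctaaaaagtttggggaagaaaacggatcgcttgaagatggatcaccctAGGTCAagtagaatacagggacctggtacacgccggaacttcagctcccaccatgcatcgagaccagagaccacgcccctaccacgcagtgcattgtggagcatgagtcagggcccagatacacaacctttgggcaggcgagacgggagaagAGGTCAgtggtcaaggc
Eci1: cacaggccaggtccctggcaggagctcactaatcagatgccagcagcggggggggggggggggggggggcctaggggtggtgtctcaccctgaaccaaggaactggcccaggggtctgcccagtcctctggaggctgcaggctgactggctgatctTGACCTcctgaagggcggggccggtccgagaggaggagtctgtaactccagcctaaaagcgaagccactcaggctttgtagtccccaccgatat
The Acsl1 stretch is chr16:52532393-52532642 on the minus strand, that of Fabp3 is chr5:147935875-147936124 on the plus strand, that of Acadvl is chr10:55236706-55236955 on the minus strand and that of Eci1 is chr10:13961000-13961249 on the plus strand. The Acsl1 stretch lies inside its gene, which spans 52487870 to 52554110, so the start it precedes is an internal one. The same holds for Acsl6, Slc27a1, Cpt2 and Acot2. In that order, their genes span 38940668 to 38999515, 18311859 to 18337024, 127893450 to 127911347 and 109341426 to 109352818. All of these count among the 27. Some other stretches overlap their gene in part. Among them are those of Acadvl, whose gene ends at 55236786, and of Fabp3, whose gene begins at 147936027. Searched on both strands, AGGTCA was in 5 of the 27 promoters (18.5%), against 14.07% of 33465 rat promoters of the same length. These were Acadvl with 2 matches, 169 and 17 bases before the listed start, and Echs1, Eci1, Slc27a1 and Hsd17b4 with 1 each. The nearer Acadvl match and the Slc27a1 match lie inside the span of their gene. Of the 18 genes with a promoter that fell at 24 h after colchicine 2 mg/kg, 4 held it. The ERR element, whose letters TCAAGGTCA include the half-site, was in 0 of the 27 and in 0.39% of all promoters. TATAAA, the TATA element, was in 2 of the 27 (7.4%), Echs1 and Cd36, against 12.93% of all. The median share of G and C was 61.2% in these promoters and 51.2% in all. A match is a description of the letters, not a binding site, and a promoter without one says nothing of the factor. The 33 genes lie on 15 chromosomes, and the neighbours Hadhb and Hadha on chromosome 6, both without a call, are 243 bases apart.

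Of the 5 genes of uptake and binding, Fabp3 had the largest change. It encodes the fatty acid binding protein of heart muscle. Saline animals at 24 h had a lowest, median and highest intensity of 19400, 21600 and 23200, and colchicine 2 mg/kg animals had 6380, 10900 and 22000. Only replicate 1 of the treated animals, at 22000, lay within the saline range. The mean was 11500 ± 5810 against 21600 ± 1440, a difference of -1.04 ± 0.13 (adjusted p = 1.93e-09). This SD was the largest of the 14 groups, while the standard error comes from the spread pooled over all. Over the alternative limma settings and the fits without 1 animal, the highest adjusted p was 0.00432. Without the arrays set apart the mean was 9450 ± 3050 in 5 animals and the difference -1.25 ± 0.10 (adjusted p = 8.81e-18), with no overlap. The array left out, replicate 1, was picked by its profile in these data, so that p-value and the lack of overlap are no separate support. After vincristine 1 mg/kg the 6 values ran from 14800 over a median of 16900 to 18000, all under the lowest saline animal. That fall was -0.36 ± 0.13 (adjusted p = 0.0298), a call lost in 4 of 12 fits that each left out 1 animal of either group. Vinblastine 3 mg/kg gave a mean of 19100 ± 1690 and -0.18 (adjusted p = 0.48). Over both saline groups and the 6 lower-dose groups, the group means of Fabp3 ran from 19500 to 21600.

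Slc27a1, a fatty acid transport protein of the plasma membrane, fell after colchicine 2 mg/kg at 24 h. Saline animals had 640, 738 and 1090 as lowest, median and highest, and colchicine animals 293, 586 and 717. The groups overlapped, and all 6 colchicine animals lay under the saline mean. The means were 557 ± 158 and 786 ± 164, and the difference was -0.52 ± 0.15 (adjusted p = 0.00231). Vincristine 1 mg/kg gave 948 ± 140 and 0.27 (adjusted p = 0.152), and vinblastine 3 mg/kg gave 920 ± 161 and 0.23 (adjusted p = 0.384). Slc22a5, the carnitine transporter of the plasma membrane, fell after colchicine from 135 ± 19.5 to 107 ± 24.1, by 0.31 ± 0.12 on the log2 scale (adjusted p = 0.0327, lower in 5 of 6), and was lost in 6 of the 12 fits without 1 animal.

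Fabp4 and Cd36 had higher means than saline at 24 h after each of the 3 compounds. Fabp4, the binding protein of fat cells that capillary endothelium also makes, had 3860, 4040 and 5280 as lowest, median and highest in saline. Animals given vinblastine 3 mg/kg had 4690, 5810 and 7900, those given vincristine 1 mg/kg 5570, 6370 and 6650, and those given colchicine 2 mg/kg 4950, 5310 and 7300. All 6 animals of each group lay above the saline mean, and the vincristine animals did not overlap with saline. The rises were 0.50 ± 0.15 (adjusted p = 0.0185) after vinblastine, 0.56 ± 0.15 (adjusted p = 0.00206) after vincristine and 0.40 ± 0.15 (adjusted p = 0.0218) after colchicine. The vinblastine call ended without replicate 1 or 4 of that group (adjusted p = 0.0687 and 0.0631), and the colchicine call without its replicate 2 (0.0818). Cd36, the main fatty acid carrier of the cell surface in heart muscle and endothelium, rose after vincristine from 7770 ± 1030 to 11000 ± 1870, by 0.50 ± 0.14 (adjusted p = 0.00329). Vinblastine gave Cd36 a mean of 9900 ± 2390 and 0.32 (adjusted p = 0.14), and colchicine gave 8870 ± 955 and 0.19 (adjusted p = 0.262).

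Markers of the cells that share Fabp4 and Cd36 moved in the same samples. At 24 h, 19.3% of all genes rose and 25.3% fell after colchicine, 12% and 18.4% after vincristine, and 5.29% and 4.28% after vinblastine. Of 14 endothelial markers, 8 rose and 1 fell after colchicine 2 mg/kg at 24 h, and their summed intensity was 14300 to 19200 against 12500 to 15500 in saline. After vincristine 5 rose and 2 fell, with a sum of 14100 to 16700, and after vinblastine 2 rose and 1 fell, with a sum of 13000 to 17500. Leaving out the arrays set apart, the endothelial counts were 8 and 2 after colchicine, 5 and 2 after vincristine and 6 and 2 after vinblastine. Among all genes in that fit, 22.4% rose and 28.2% fell after colchicine, 14.4% and 20.5% after vincristine, and 8.01% and 7.75% after vinblastine. The tight junction gene Cldn5 rose by 1.14 and Emcn, a sialomucin of capillaries, fell by 0.80 after colchicine. The defining adipocyte genes Adipoq and Plin1 were near background, with mean intensities of 36.8 and 39.1 over all arrays, while Gpd1, a glycerol phosphate dehydrogenase on the same list, rose by 1.42 after colchicine and Cfd fell by 0.40. Of the 4 adipocyte markers tested, 1 rose and 1 fell after each compound. The summed intensity of the 9 listed genes on the array at 24 h was 1070 to 1330 in saline and 1230 to 3920 after colchicine. Most of that sum was Gpd1, with means of 947 and 2750 in these groups, while Cfd, the next brightest, averaged 45.8 over all arrays. The sum therefore follows Gpd1 and includes genes too dim to be tested. The part of these cells in the Fabp4 and Cd36 values was not tested.

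Acyl-CoA synthetases, which join fatty acids to coenzyme A, included the gene with the largest change of all 33. Acsl1, the main synthetase of heart mitochondria, had 5610, 7610 and 7860 as lowest, median and highest in saline at 24 h. After colchicine 2 mg/kg the values were 1360, 2420 and 7670, and 5 of 6 animals lay under every saline animal. The means were 3230 ± 2280 and 7290 ± 855, and the fall was -1.39 ± 0.19 (adjusted p = 6.58e-09). The SD of this colchicine group was the largest of the 14 groups, while the standard error comes from the spread pooled over all. Over the alternative limma settings and the fits without 1 animal, the highest adjusted p was 0.00298. Without the array set apart, replicate 1 at 7671, the mean was 2340 ± 745 and the fall -1.69 ± 0.12 (adjusted p = 2.18e-20). Replicate 1 was left out for a profile near that of the lower dose, so the narrower spread and smaller p-value follow in part from that choice. After vincristine 1 mg/kg the animals had 4020, 4310 and 4870, all under the lowest of saline, and the fall was -0.73 ± 0.19 (adjusted p = 0.00162). Vinblastine 3 mg/kg animals had 5010, 5810 and 6580, overlapping with saline, with a difference of -0.33 ± 0.19 (adjusted p = 0.31). Group means of Acsl1 in both saline and all lower-dose groups ran from 6820 to 7290. A second Acsl1 probe set fell by 1.48 ± 0.21 after colchicine (adjusted p = 2.9e-08) and by 0.79 after vincristine (adjusted p = 0.00296).

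Acsl6, a synthetase that favours polyunsaturated fatty acids, fell at 24 h after all 3 compounds. Saline animals had 221, 245 and 329, vinblastine 3 mg/kg animals 148, 181 and 218, vincristine 1 mg/kg animals 124, 171 and 232, and colchicine 2 mg/kg animals 130, 143 and 261. The vinblastine animals did not overlap with saline and the others did. The falls were -0.46 ± 0.11 (adjusted p = 0.00319), -0.52 ± 0.11 (adjusted p = 0.000205) and -0.64 ± 0.11 (adjusted p = 2.21e-06). Acsl3, a synthetase of the endoplasmic reticulum and lipid droplets, had differences between -0.09 and -0.04 and passed the threshold in none of these. Acot2, a mitochondrial thioesterase that splits acyl-CoA again, rose after vincristine by 0.36 ± 0.13 (adjusted p = 0.0254), from 2500 ± 418 to 3210 ± 566, a call lost in 3 of the 12 fits without 1 animal. Its differences after vinblastine and colchicine were 0.33 (adjusted p = 0.0918) and -0.08 (adjusted p = 0.666). Mlycd, malonyl-CoA decarboxylase, removes the inhibitor of the carnitine shuttle. It rose from 1590 ± 134 to 2080 ± 303 after vinblastine, by 0.38 ± 0.09 (adjusted p = 0.00463), and to 2000 ± 147 after vincristine, by 0.33 ± 0.09 (adjusted p = 0.0054). Neither group overlapped with saline, and the colchicine mean was 1410 ± 293, a difference of -0.20 (adjusted p = 0.0802).

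**Figure D4:**
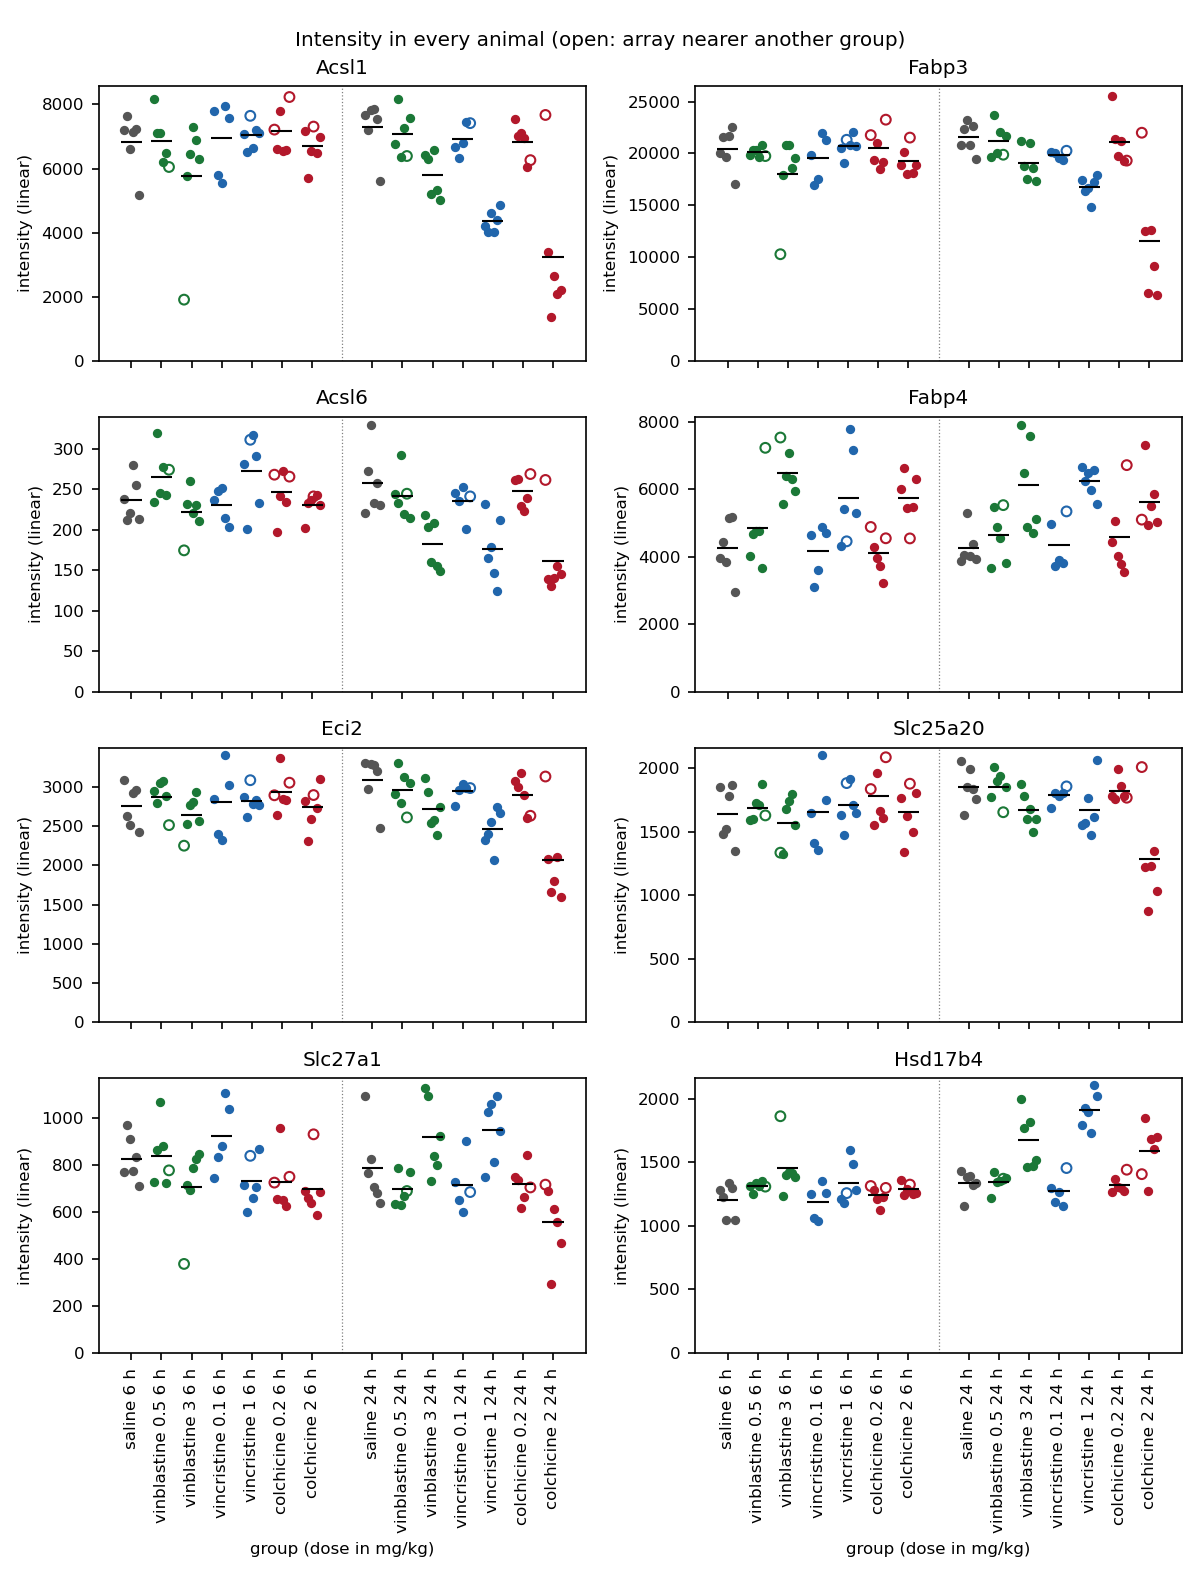
Intensity (linear axis) is shown for each animal of the 14 groups in 8 fatty acid genes, with a bar at each group mean and open symbols for the 10 arrays set apart. In colchicine 2 mg/kg at 24 h the open symbol of Acsl1, replicate 1, stands at 7671 and the other 5 animals between 1360 and 3390.

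Of the 4 carnitine shuttle genes, 3 fell after colchicine 2 mg/kg at 24 h, and the other rose after both vinca alkaloids. Cpt1b, the muscle carnitine palmitoyltransferase of the outer membrane and the entry step of the shuttle, rose by 0.20 ± 0.06 after vinblastine (adjusted p = 0.017) and by 0.21 ± 0.06 after vincristine (adjusted p = 0.0042), from 5840 ± 312 to 6720 ± 572 and 6740 ± 391. The vinblastine call was lost in 3 of the 12 fits without 1 animal. After colchicine its difference was -0.02, with a 95% interval from -0.134 to 0.097. Slc25a20, the carrier that exchanges acylcarnitine for carnitine across the inner membrane, had 1630, 1840 and 2050 as lowest, median and highest in saline and 874, 1230 and 2010 after colchicine. All colchicine animals except replicate 1 lay under the saline range. The fall was -0.57 ± 0.10 (adjusted p = 5.53e-06). Cpt2, which returns the acyl group to coenzyme A inside the mitochondrion, fell from 3770 ± 287 to 2980 ± 579, by 0.36 ± 0.10 (adjusted p = 0.00166, lower in 6 of 6). Crat, the carnitine transferase for short acyl groups, fell from 3300 ± 218 to 2500 ± 621, by 0.43 ± 0.10 (adjusted p = 0.000141, lower in 5 of 6). None of Cpt2, Slc25a20 and Crat passed the threshold at 24 h after vinblastine or vincristine.

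In the first dehydrogenation, 2 of the 5 acyl-CoA dehydrogenases fell after colchicine 2 mg/kg at 24 h. Acads, for short chains, fell from 2740 ± 270 to 2070 ± 337 after colchicine, by 0.41 ± 0.09 (adjusted p = 0.000162, lower in 6 of 6). It also fell after vincristine, to 2060 ± 251 and by 0.41 ± 0.09 (adjusted p = 0.000407), with no overlap, and after vinblastine, to 2260 ± 316 and by 0.28 ± 0.09 (adjusted p = 0.0401), but that last call was lost in 8 of the 12 fits without 1 animal (adjusted p up to 0.155) and with only the compared groups in the fit (0.0667). Acadvl, for very long chains, fell from 4270 ± 288 to 3820 ± 414 after colchicine, by 0.16 ± 0.07 (adjusted p = 0.0446), a call lost in 6 of the 12 fits without 1 animal and with quantile normalization (0.216). Acadl, for long chains, differed by -0.03 after colchicine, with a 95% interval from -0.122 to 0.069. Acadm, for medium chains, differed by -0.15, with an interval from -0.284 to -0.017 and an adjusted p of 0.0602. Acadsb, for branched short chains, was dim at 151 ± 44.1 in saline, and its differences of -0.47, -0.52 and -0.06 after vinblastine, vincristine and colchicine each had a standard error of 0.33.

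Electrons from these enzymes pass through the electron transfer flavoprotein and its dehydrogenase to the respiratory chain, and all 3 genes of this route fell after colchicine. Etfb, the beta subunit of the flavoprotein, fell from 7260 ± 320 to 5560 ± 989, by 0.40 ± 0.07 (adjusted p = 4.6e-06), and the groups did not overlap. Etfdh, the dehydrogenase that hands the electrons to ubiquinone, fell from 3100 ± 205 to 2350 ± 536, by 0.43 ± 0.09 (adjusted p = 3.01e-05, lower in 5 of 6). Etfa, the alpha subunit, fell from 5520 ± 446 to 4830 ± 850, by 0.21 ± 0.08 (adjusted p = 0.0229, lower in 5 of 6), a call lost in 4 of the 12 fits without 1 animal. None of the 3 passed the threshold after vinblastine or vincristine at 24 h.

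Of the 6 genes of the later steps of the spiral, 4 fell after colchicine 2 mg/kg at 24 h. Hadha and Hadhb, the subunits of the trifunctional protein that handles long chains, differed by -0.15 and -0.02 after colchicine, with 95% intervals from -0.300 to -0.001 and from -0.142 to 0.096. Hadh, the dehydrogenase for short hydroxyacyl chains, fell from 7000 ± 499 to 5070 ± 1090 after colchicine, by 0.49 ± 0.08 (adjusted p = 6.98e-07), and to 5670 ± 526 after vincristine, by 0.31 ± 0.08 (adjusted p = 0.00212). Echs1, the short-chain hydratase, fell from 3050 ± 192 to 2570 ± 494 after colchicine (adjusted p = 0.0388, lower in 4 of 6) and to 2530 ± 331 after vincristine (adjusted p = 0.0451, lower in 5 of 6). These calls were lost in 7 and 9 of the 12 fits without 1 animal. Acaa2, the mitochondrial thiolase, fell from 7520 ± 864 to 5540 ± 839 after colchicine, by 0.45 ± 0.10 (adjusted p = 0.000263, no overlap), and to 5890 ± 882 after vinblastine, by 0.36 ± 0.10 (adjusted p = 0.0167). A dim second Acaa2 probe set gave -0.15 (adjusted p = 0.288) and 0.11 (adjusted p = 0.627) in those comparisons, and the vinblastine call was lost in 2 of the 12 fits without 1 animal and with the mean of all probe sets (0.385). Acat1, the acetoacetyl-CoA thiolase that also serves ketone bodies, fell after colchicine from 6820 ± 379 to 5770 ± 917, by 0.25 ± 0.10 (adjusted p = 0.0249), a call lost in 3 of the 12 fits without 1 animal. Its other probe set differed by -0.16 (adjusted p = 0.126).

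Auxiliary enzymes prepare unsaturated fatty acids for the spiral, and 3 of the 4 fell after colchicine 2 mg/kg at 24 h. Eci2, an enoyl-CoA isomerase, had 2470, 3240 and 3310 as lowest, median and highest in saline, 2070, 2480 and 2740 after vincristine and 1600, 1940 and 3130 after colchicine. Replicate 1, at 3131, was again the high array of the colchicine group, and both treated groups overlapped with saline. The falls were -0.61 ± 0.09 after colchicine (adjusted p = 1.22e-07) and -0.33 ± 0.09 after vincristine (adjusted p = 0.00462). Eci1, the mitochondrial isomerase for long chains, fell after colchicine from 4160 ± 623 to 2970 ± 630, by 0.50 ± 0.10 (adjusted p = 1.86e-05, lower in 6 of 6), while a dim second probe set gave -0.08 (adjusted p = 0.537). Ech1, a dienoyl-CoA isomerase, fell from 8630 ± 453 to 6490 ± 1480, by 0.44 ± 0.10 (adjusted p = 0.000251, lower in 5 of 6). Decr1, the dienoyl-CoA reductase, had means of 5650 ± 689 and 4820 ± 1240 and a difference of -0.26 (adjusted p = 0.0979).

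Hsd17b4, the bifunctional enzyme of beta oxidation in the peroxisome, rose at 24 h after all 3 compounds. Saline animals had 1160, 1360 and 1430 as lowest, median and highest, vinblastine 3 mg/kg animals 1460, 1640 and 1990, vincristine 1 mg/kg animals 1730, 1910 and 2100, and colchicine 2 mg/kg animals 1270, 1650 and 1840. Only the colchicine animals overlapped with saline. The rises were 0.31 ± 0.08 (adjusted p = 0.00431), 0.51 ± 0.08 (adjusted p = 3.56e-07) and 0.24 ± 0.08 (adjusted p = 0.00975). Over both saline and all lower-dose groups its means ran from 1190 to 1350.

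**Figure D5:**
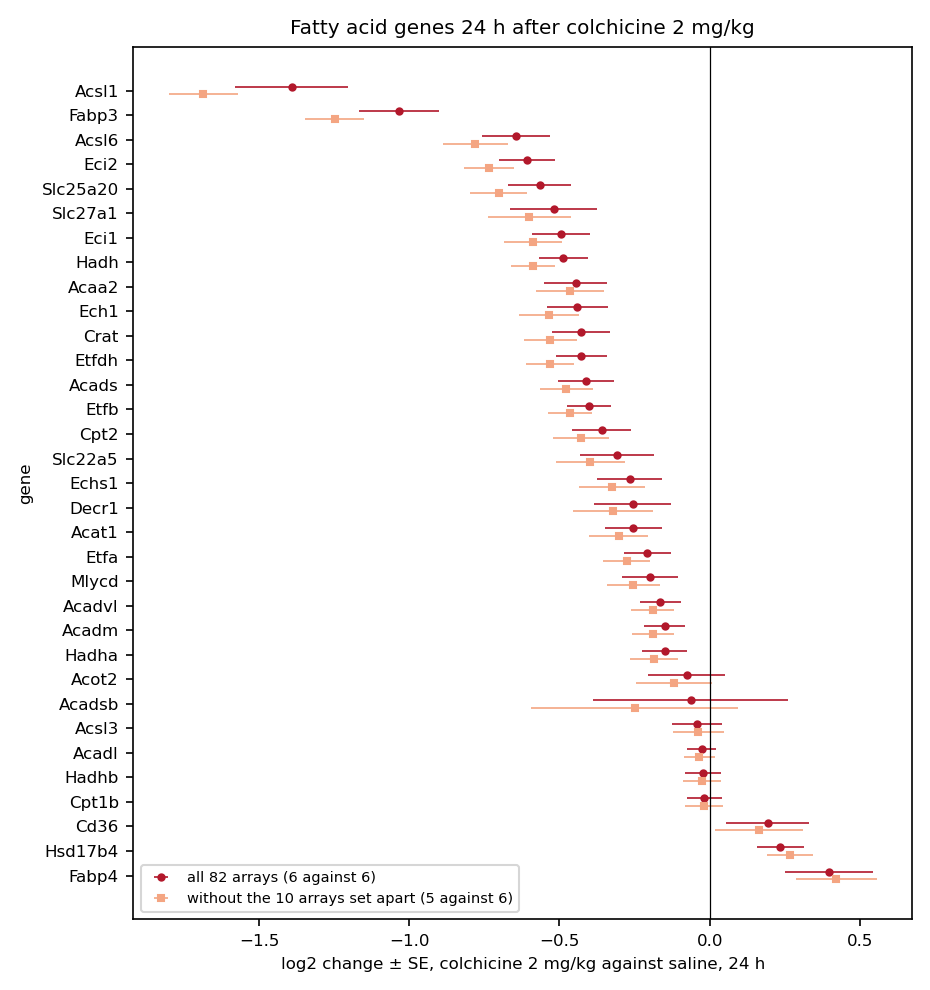
Points show the log2 difference (± SE) of each of the 33 genes between colchicine 2 mg/kg and saline at 24 h, with all arrays and without the 10 arrays set apart. The largest fall, that of Acsl1, was -1.39 with all arrays and -1.69 without them.

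Across the 24 h comparisons, the animals of the higher dose and of saline did not overlap for 4 genes after vinblastine 3 mg/kg, against 6.3% of all genes, and for 6 after vincristine 1 mg/kg, against 20.1%. For vinblastine these were Acsl6, Mlycd, Hadhb and Hsd17b4. Hadhb was not called there, with 13800 ± 390 against 12800 ± 672 and an adjusted p of 0.281. For vincristine they were Fabp3, Fabp4, Acsl1, Mlycd, Acads and Hsd17b4.

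At 6 h few of the 33 genes changed, and none fell. After vinblastine 3 mg/kg 4 rose, against 15.7% of all genes that rose and 7.67% that fell, and after colchicine 2 mg/kg 2 rose, against 4.89% and 4.37%. After vincristine 1 mg/kg the count in limma was 0, with 3 genes under an unadjusted p of 0.05 and a smallest adjusted p of 0.0891, against 2.05% and 1.25%. Fabp4 had 2950, 4200 and 5180 as lowest, median and highest in saline and 5550, 6360 and 7530 after vinblastine, with no overlap. It was the 1 gene of the 33 without overlap there, against 7.13% of all genes. The rise was 0.62 ± 0.15 (adjusted p = 0.00117) after vinblastine. In the same animals 5 of the 14 endothelial markers rose and 2 fell, with Esam, an adhesion molecule of endothelial junctions, up by 0.72 and Cldn5 up by 0.64, and the summed intensity of the list was 14200 to 18000 against 11200 to 13900 in saline, without overlap. After vincristine 2 rose and 2 fell, and after colchicine 3 rose and 2 fell; without the arrays set apart 5 rose and 2 fell, and 5 rose and 3 fell. Their part in the 6 h Fabp4 values was not tested. After colchicine its values were 4540, 5750 and 6630, which overlapped with saline, and the rise was 0.44 ± 0.15 (adjusted p = 0.0399). That call was lost in 8 of the 12 fits without 1 animal (adjusted p up to 0.149), and the count of 2 after colchicine ranged from 0 to 2 over these fits. After vincristine they were 4310, 5360 and 7800, and Fabp4 passed the threshold only without the 10 arrays set apart (0.49, adjusted p = 0.00847). Without those arrays the counts of rises were 2 after vinblastine, 1 after vincristine and 3 after colchicine, against 15.8%, 12.3% and 19.3% of all genes that changed.

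Cpt1b rose at 6 h from 5150 to 5830 after vinblastine 3 mg/kg, by 0.18 ± 0.06 (adjusted p = 0.0171), and to 5810 after colchicine 2 mg/kg, by 0.18 ± 0.06 (adjusted p = 0.0392). The Cpt1b calls were lost in 2 and 7 of the 12 fits without 1 animal. Hsd17b4 rose from 1200 to 1450 after vinblastine, by 0.26 ± 0.08 (adjusted p = 0.00926), and Acsl3 from 43 to 53.4, by 0.23 ± 0.08 (adjusted p = 0.0333). The Hsd17b4 and Acsl3 calls ended without replicate 1 of the vinblastine group, at adjusted p values of 0.0962 and 0.163. That animal, set apart above, had an Acsl1 intensity of 1908, a Fabp3 intensity of 10280 and a Slc27a1 intensity of 379.8, the lowest of its group in each. Acsl1, Fabp3 and Slc27a1 did not pass the threshold there (-0.35, -0.21 and -0.26, adjusted p of 0.173, 0.252 and 0.199).

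None of the 33 genes passed the threshold at a lower dose at either time, with or without the arrays set apart. At 6 h the limma count was 0 of 33 after vinblastine 0.5 mg/kg (0.0353% of all genes changed), with 2 genes under an unadjusted p of 0.05. It was 0 after vincristine 0.1 mg/kg (0% of all genes), with 0 under an unadjusted p of 0.05, and 0 after colchicine 0.2 mg/kg (0.274%), with 0. At 24 h it was 0 after each compound (0% of all genes in all 3), with 0, 1 and 0 genes under an unadjusted p of 0.05 after vinblastine, vincristine and colchicine. Acadsb, a dim gene described above, held the extremes at 6 h, from -0.369 after vinblastine to 0.367 after colchicine.

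Group means of the members that changed at a higher dose are given here as ranges over the 8 groups of saline and lower doses. Among the carriers, Cd36 ran from 7350 to 8340, Fabp4 from 4100 to 4850, Slc27a1 from 698 to 923 and Slc22a5 from 109 to 148. In activation, Acsl3 ran from 43 to 54, Acsl6 from 230 to 265, Acot2 from 2080 to 2760 and Mlycd from 1400 to 1620. In the carnitine shuttle, Cpt1b ran from 5150 to 5990, Cpt2 from 3130 to 3770, Slc25a20 from 1640 to 1850 and Crat from 2730 to 3310. The colchicine 2 mg/kg means of Cpt2, Slc25a20 and Crat at 24 h, given above, lay under these ranges. In the first dehydrogenation, Acadvl ran from 3800 to 4310, Acads from 2160 to 2740, Etfa from 4880 to 5770, Etfb from 6530 to 7360 and Etfdh from 2710 to 3160. In the later steps, Hadh ran from 6490 to 7090, Echs1 from 2580 to 3180, Acaa2 from 5780 to 7520 and Acat1 from 5640 to 6880. The auxiliary enzymes Ech1, Eci1 and Eci2 ran from 7640 to 8850, from 3500 to 4160 and from 2760 to 3090. The colchicine means of Acadvl (3820) and Acat1 (5770) at 24 h lay within these ranges, which include the lower saline means at 6 h.

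The higher dose of each compound was also tested directly against its lower dose. After colchicine at 24 h, 20 fell and 1 rose at 2 mg/kg against 0.2 mg/kg (22.7% and 18.8% of all genes), with a median of -0.289 against 0.004 over all genes. The falls were led by Acsl1 (-1.30, adjusted p = 4.88e-08) and Fabp3 (a mean of 11500 against 21100, adjusted p = 7.33e-09), followed by Acsl6 (-0.60), Slc25a20 (-0.55), Eci2 (-0.52) and Hadh (-0.50), and Hsd17b4 rose by 0.25. After vincristine at 24 h, 7 rose and 4 fell (12.3% and 11.6%), among them Mlycd (0.45), Hsd17b4 (0.58), Slc27a1 (0.40, adjusted p = 0.046), Acsl1 (-0.67) and Acsl6 (-0.41). After vinblastine at 24 h, Mlycd (0.35), Cpt1b (0.19) and Hsd17b4 (0.30) rose and Acsl6 (-0.38) fell, against 3.92% and 1.56% of all genes. At 6 h Fabp4 alone rose, after vinblastine (0.44, adjusted p = 0.0443, 5.81% of all genes rose) and after colchicine (0.48, adjusted p = 0.0228, 4.47% of all genes rose). After vincristine at 6 h the limma count was 0 (2.81% of all genes changed), with 5 genes under an unadjusted p of 0.05. Without the arrays set apart, the 24 h counts were 2 rises and 21 falls for colchicine, 7 and 4 for vincristine and 4 and 3 for vinblastine, against 49%, 27.3% and 11.1% of all genes that changed.

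Whether the change at 24 h differed from that at 6 h was tested as a difference of differences. For colchicine 2 mg/kg, 15 genes had a lower change at 24 h and none a higher one, against 12.6% and 6.3% of all genes, with a median of -0.335. Acsl1 led with -1.37 ± 0.27 (adjusted p = 0.000138) and Fabp3 with -0.96 ± 0.19 (adjusted p = 0.000174). For vincristine 1 mg/kg, Acsl1, Acsl6 (-0.71 ± 0.16, adjusted p = 0.00158), Acads and Hadh were lower and Hsd17b4 was higher (0.37 ± 0.11, adjusted p = 0.0179), against 8.73% and 3.53% of all genes. For vinblastine 3 mg/kg the limma count was 0 (4.44% of all genes changed), with 6 under an unadjusted p of 0.05 and a smallest adjusted p of 0.0914. Saline itself, at 24 h against 6 h, gave a count of 0 in limma (0.00883% of all genes changed), with 11 genes under an unadjusted p of 0.05 and a smallest adjusted p of 0.217. In 32 of the 33 genes the saline mean at 24 h was above that at 6 h, with a median difference of 0.162 against 0.042 over all genes. Saline replicate 6 at 6 h, low in all 33 genes as given above, is part of the 6 h means. This shift between the saline groups enters the differences between the times.

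Most of the listed regulators of the pathway fell at 24 h after colchicine and vincristine. Of 24 regulators, 16 fell and 2 rose at 24 h after colchicine 2 mg/kg, with a median of -0.412, and 15 fell and 1 rose after vincristine 1 mg/kg, while 1 fell and 1 rose after vinblastine 3 mg/kg. The shares of all genes were 25.3% that fell and 19.3% that rose after colchicine. They were 18.4% and 12% after vincristine, and 4.28% and 5.29% after vinblastine. Perm1, a muscle partner of the ERR receptors, had 2770 ± 286 in saline and 597 ± 763 after colchicine, a fall of -2.79 ± 0.31 (adjusted p = 4.15e-11). Rxrg, the retinoid partner of the PPAR receptors, fell by 1.95 and Ppargc1a, the gene of PGC-1alpha, by 1.46. At 6 h after vinblastine 3 mg/kg, 3 regulators rose and 3 fell, against 15.7% and 7.67% of all genes, with Perm1 at -1.26 and Ppargc1a at -0.90. After vincristine at 6 h 0 passed the limma threshold, with 0 under an unadjusted p of 0.05, against 2.05% of all genes that rose and 1.25% that fell. After colchicine 1 rose, against 4.89% of all genes. Without the arrays set apart these 6 h counts were 1 rise and 3 falls after vinblastine, 1 fall after vincristine and 3 rises and 3 falls after colchicine. In that order, 15.8%, 12.3% and 19.3% of all genes changed there. At 24 h after vinblastine 7 regulators fell in place of 1, against 7.75% of all genes without those arrays.

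Target genes of the PPAR receptors and genes of the switch between glucose and fat moved both ways. Of 14, 5 rose and 6 fell at 24 h after colchicine, 5 rose and 5 fell after vincristine and 1 rose and 3 fell after vinblastine. These counts stand beside the 24 h shares of all genes given for the regulators. Angptl4, an inhibitor of lipoprotein lipase, had 40.1 ± 4.13 in saline and 962 ± 647 after colchicine, a rise of 3.68 (adjusted p = 4.54e-10), and rose by 3.46 after vincristine. Pdk4, the kinase that turns off pyruvate dehydrogenase, rose by 2.11 after colchicine at 24 h. At 6 h it had already risen, by 2.17, 1.63 and 1.80 after vinblastine, vincristine and colchicine. Without the arrays set apart, 5 of the 14 rose and 3 fell at 24 h after vinblastine, against 8.01% and 7.75% of all genes. Slc2a4, the glucose carrier that insulin regulates, fell at 24 h after vinblastine (-1.10), vincristine (-1.85) and colchicine (-1.85).

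Further lists covered triglyceride handling, other fatty acid enzymes, the peroxisome and the respiratory chain at 24 h. The shares of all genes were 5.29% that rose and 4.28% that fell after vinblastine. They were 12% and 18.4% after vincristine, and 19.3% and 25.3% after colchicine. Of 20 genes of triglyceride supply, storage and lipolysis, 4 rose and 2 fell after vinblastine, 5 and 4 after vincristine, and 5 and 6 after colchicine. Pnpla2, the triglyceride lipase of the cell, rose by 0.95, 1.46 and 1.21 in that order, and Plin5, a lipid droplet coat protein of oxidative tissue, fell by 0.86 after vincristine and by 1.63 after colchicine. Of 21 further fatty acid enzymes and carriers, 1 rose and 2 fell after vinblastine, 6 and 7 after vincristine and 6 and 9 after colchicine, and the mitochondrial thioesterase Acot13 (-1.59) and the acetyl-CoA synthetase Acss1 (-1.35) fell furthest after colchicine. Of 9 peroxisomal genes, none rose and 4 fell after colchicine, led by the enoyl-CoA reductase Pecr (-1.29), 1 rose and 4 fell after vincristine, and 0 changed after vinblastine, where 4 were under an unadjusted p of 0.05 in limma. Of 27 genes of oxidative phosphorylation none rose, while 12 fell after vincristine, 19 after colchicine with a median of -0.179, and 0 after vinblastine (5 under an unadjusted p of 0.05). Sdhd, a subunit of succinate dehydrogenase, led with -0.65 after colchicine. At 6 h 0 of these 27 passed the limma threshold after any compound, with 0, 7 and 0 under an unadjusted p of 0.05 after vinblastine, vincristine and colchicine. Without the arrays set apart, the 24 h falls after vinblastine were 4 of the 21 further enzymes, 2 of the 9 peroxisomal genes and 2 of the 27 of oxidative phosphorylation, against 7.75% of all genes. Those of oxidative phosphorylation after vincristine and colchicine were 12 and 20, against 20.5% and 28.2% of all genes.

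Cell type markers at 24 h after colchicine 2 mg/kg are given beside these falls. Among all genes, 4.28% fell and 5.29% rose after vinblastine, and 18.4% and 12% after vincristine. After colchicine, 25.3% of all genes fell and 19.3% rose. Of 13 cardiomyocyte markers, 5 fell and 1 rose, with a median of -0.114 and a summed intensity of 216000 to 269000 against 233000 to 275000 in saline. After vincristine 4 fell and 1 rose and after vinblastine none fell and 1 rose. Of 8 fibroblast markers, 5 fell and 2 rose after colchicine, and their sum was 20000 to 28900 against 29200 to 36700. Among 9 macrophage markers 4 rose and 1 fell after colchicine, and 6 rose and none fell after each vinca alkaloid. Neutrophil genes S100a8 and S100a9 rose and Ncf1 fell after colchicine, all 3 of those tested. The sum of the 6 listed neutrophil genes on the array, which includes genes too dim to be tested, was 441 to 795 against 276 to 329. Of 7 genes of smooth muscle and pericytes 2 rose and 1 fell, and of 4 red cell genes 1 fell. With the 10 arrays left out, 6 cardiomyocyte markers fell and 2 rose after colchicine, 3 macrophage markers rose and 2 fell, and 2 red cell genes fell, while the fibroblast and neutrophil counts were as above. In that fit 28.2% of all genes fell and 22.4% rose. The part of a change in cell types in the falls of the fatty acid genes was not tested.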

How the data were processed

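Total RNA of rat hearts was extracted with a Qiagen kit and labelled as biotinylated cRNA for Affymetrix arrays, per the labels. The deposited values are linear intensities per probe set, with array medians close together; how the authors normalized them was not given in the sources read. The 31099 probe sets held 57 controls, 20826 with 1 gene symbol, 436 with several and 9780 without annotation. The filter kept genes whose brightest probe set exceeded the 40th percentile of intensity on 5 arrays or more.

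Group means of log2(intensity + 16) were fitted to 82 arrays with limma 3.58.1 in R 4.3.3 (tables read with data.table, version 1.17.8), with variances moderated by eBayes (residual df 68, prior df 4.7) and Benjamini-Hochberg adjustment. The 22 comparisons were 12 of a dose with saline, 6 of the higher with the lower dose, 3 of the 24 h with the 6 h change and 1 of saline at 24 h with 6 h. The script was tested on simulated data.

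The 33 genes, the other lists and the left-out arrays were chosen with earlier results of these data known. Values by animal are given for the 8 genes with the largest change past the threshold at a higher dose; from each other list, up to 3 genes with the largest change past the threshold could be named. Precision rests on the number of arrays. An array was set apart where its root mean square distance to the median of its own group, itself left out, exceeded 1.3 times that to another group. No label states separate litters or days, so p-values measure the spread between these animals. Alternatives were the added constant, quantile normalization, the filter, the probe set rule, array weights, fits of the compared groups alone, left-out arrays and the replicate number as a block.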

Additional observations from a re-analysis of the deposited data

Results flagged for a closer look

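In 8 genes with values by animal, 15 of 112 groups held 1 animal far from the others by Dixon's criterion, where about 1 in 20 groups, or 5.6, would by chance. Replicate 1 of colchicine 2 mg/kg at 24 h was the highest of its group in Acsl1 at 7670 (next 3390), in Acsl6 at 261 (next 155) and in Eci2 at 3130 (next 2110). Replicate 1 of vinblastine 3 mg/kg at 6 h was the lowest in Acsl1 at 1910 (next 5780), in Fabp3 at 10300 (next 17900) and in Slc27a1 at 380 (next 695), and the highest in Hsd17b4 at 1860 (next 1420). Both are among the arrays set apart, as are colchicine 2 mg/kg replicate 4 at 6 h, with a high Slc27a1 of 931 (next 690), and vinblastine 0.5 mg/kg replicate 6 at 6 h, with a high Fabp4 of 7230 (next 4770). The cause was not tested. In saline at 24 h, replicate 6 was low in Acsl1 at 5610 (next 7200) and replicate 3 high in Fabp4 at 5280 (next 4360). Single animals also stood apart in Fabp3 at colchicine 0.2 mg/kg, 24 h (replicate 1, high at 25500, next 21400), in Acsl6 at colchicine 2 mg/kg, 6 h (replicate 1, low at 202, next 230), in Eci2 at vincristine 0.1 mg/kg, 24 h (replicate 1, low at 2750, next 2960), and in Hsd17b4 at vinblastine 0.5 mg/kg, 24 h (replicate 1, low at 1220, next 1350).

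In 20 cases the change against saline differed between 24 and 6 h by the test of the difference itself in limma (adjusted p under 0.05). For vincristine 1 mg/kg these were Acsl1 (-0.78), Acsl6 (-0.71), Acads (-0.39), Hadh (-0.38) and Hsd17b4 (0.37). For colchicine 2 mg/kg they were Fabp3 (-0.96), Acsl1 (-1.37), Acsl6 (-0.62), Cpt2 (-0.46), Slc25a20 (-0.58), Crat (-0.41), Acadvl (-0.28), Acads (-0.36), Etfa (-0.35), Etfb (-0.49), Etfdh (-0.45), Hadh (-0.49), Ech1 (-0.48), Eci1 (-0.54) and Eci2 (-0.60). The saline means, which enter each difference, also differed between the times, as given above.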

How the results depend on the processing

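Of 48 calls among the 33 genes at the higher doses, 30 held under every alternative, 18 were lost under at least 1, and 0 changed sign. The replicate numbers of the labels did not pair the animals (correlations of same-numbered animals from -0.38 to 0.45), and a replicate block gave the same counts of changed genes as the fit without it, except 10 in place of 11 for vincristine at its higher against its lower dose at 24 h. The dim gene Acadsb has a standard error of 0.33, so only large changes of it could pass the threshold.

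Counts of changed fatty acid genes moved as follows. For most of these settings, and for the fits without 1 animal, shares of all genes are not given. A moved count there does not show whether the fatty acid genes moved apart from the other genes. Vinblastine 3 mg/kg at 6 h, 4 as reported, gave 2 with array weights, 2 without the arrays set apart, 2 without those whose names end in _2, and 1 with only the compared groups. Vincristine 1 mg/kg at 6 h gave 1 in place of 0 without the arrays set apart, against saline and against the lower dose alike. Vinblastine 3 mg/kg at 24 h gave 12 in place of 7 with array weights. For the higher against the lower dose, vinblastine at 6 h gave 3 (quantile normalization) or 0 (no filter, names ending in _2 left out, only the compared groups) in place of 1, and colchicine at 6 h gave 2 in place of 1 with array weights. At 24 h vinblastine gave 7 (quantile normalization), 10 (array weights), 7 (without the arrays set apart) or 2 (only the compared groups) in place of 4, and colchicine 13 in place of 21 with only the compared groups. For 24 h against 6 h, vinblastine gave 3 with array weights and 1 without the arrays set apart in place of 0, and vincristine gave 8 in place of 5 with only the compared groups and with array weights. Saline at 24 h against 6 h gave 1 in place of 0 with array weights. Without the arrays set apart, 15.8% of all genes changed for vinblastine 3 mg/kg at 6 h (15.7% rose and 7.67% fell with all arrays). For vincristine 1 mg/kg at 6 h 12.3% changed (2.05% and 1.25%), and 11.3% against its lower dose (2.81% changed). For vinblastine at its higher against its lower dose at 24 h, 11.1% changed (3.92% and 1.56%). For vinblastine at 24 h against 6 h, 8.15% changed (4.44% changed). The causes were not tested.

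Leaving out 1 animal at a time gave, against saline, 2 to 5 for vinblastine, 0 to 1 for vincristine and 0 to 2 for colchicine at 6 h, and 5 to 8, 10 to 13 and 17 to 26 at 24 h. For the higher against the lower dose it gave 0 to 2, 0 to 1 and 0 to 1 at 6 h and 1 to 4, 7 to 11 and 15 to 23 at 24 h, and for 24 h against 6 h 0 to 1, 2 to 7 and 11 to 17. It was 0 throughout for the lower doses and for saline at 24 h against 6 h. The vinblastine count at 6 h was 2 without saline replicate 3 or 6 or vinblastine replicate 1, and the colchicine count was 0 without saline replicate 3 or 6 or colchicine replicate 1, 3, 5 or 6.

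Single animals ended calls of vinblastine at 24 h for Fabp4 (adjusted p = 0.0687 without vinblastine replicate 1, 0.0631 without 4), Cpt1b (0.0525 without saline replicate 2, 0.0508 and 0.0688 without vinblastine replicates 1 and 2) and Acaa2 (0.0649 without saline replicate 1, 0.0789 without vinblastine replicate 5), and Acads was lost in 8 of 12 cases (up to 0.155). For vincristine at 24 h they ended Fabp3 (0.0518, 0.0618 and 0.0542 without saline replicates 2, 3 and 5, 0.0701 without vincristine replicate 4) and Acot2 (0.0979 and 0.0556 without saline replicates 2 and 6, 0.105 without vincristine replicate 2), and Echs1 was lost in 9 of 12 (up to 0.139). For colchicine at 24 h they ended Fabp4 (0.0818 without colchicine replicate 2), Acat1 (0.0649 without saline replicate 3, 0.0894 and 0.112 without colchicine replicates 3 and 6) and Etfa (0.0811 without saline replicate 3, 0.0697, 0.0538 and 0.163 without colchicine replicates 3, 4 and 6), while Slc22a5 was lost in 6 of 12 (up to 0.115), Acadvl in 6 (up to 0.159) and Echs1 in 7 (up to 0.136). At 6 h Fabp4 after colchicine was lost in 8 of 12 (up to 0.149) and Cpt1b in 7 (up to 0.154), and after vinblastine Cpt1b was lost without saline replicate 3 or 6 (0.0555 and 0.0875), Acsl3 in 4 and Hsd17b4 in 1. Quantile normalization ended the Cpt1b call after vinblastine at 6 h (0.368) and the Acadvl call after colchicine (0.216), and the mean of all probe sets ended that of Acaa2 after vinblastine (0.385).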
